A study of Mus musculus with 9 samples.

Results

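The S100 proteins are small dimeric calcium sensors of the EF-hand type, and 8 of their genes were described here in mouse bone marrow-derived macrophages (Mϕs): S100a1, S100a4, S100a6, S100a8, S100a9, S100a10, S100a11 and S100a13. The genes were chosen by symbol, as the rows of the deposited table whose Ensembl identifiers map to these names, and make up 8 of its 53379 genes. RNA-seq was run on bone marrow cells of C57BL/6 mice that had been cultured for 3 days in CSF-1 at 10 ng/ml, which drives Mϕ differentiation. The cells were then kept for 4 days in the same CSF-1 alone (control), with CSF-1 plus 10 ng/ml IL-4, or with CSF-1 plus 100 ng/ml IL-6. These doses and times are from the labels and the design text. The study's methods name 100 ng/ml for IL-4 as well, and otherwise give the same doses and times. Its legends name another dose for both cytokines and a shorter treatment. The column names give 4 days, and which cytokine doses apply was not settled. Each condition has 3 libraries, numbered by mouse, so that all 9 libraries come from 3 wild-type animals and all share CSF-1. The age and sex of the mice are not given in the labels. The study asked how IL-6 and IL-4 act on the alternative activation of Mϕs, and the contrasts here are IL-4 against control, IL-6 against control and IL-6 against IL-4.

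Binding of calcium opens a hydrophobic face on most S100 dimers, which then grip a target such as an annexin, a myosin heavy chain or a receptor. S100a8 and S100a9 pair into calprotectin, which fills the cytosol of neutrophils and is also made by monocytes, binds zinc and manganese, and acts on TLR4 when released. S100a10 differs from the others in that it has lost calcium sensing and is held by annexin A2 at the plasma membrane. Most genes of the family lie in a cluster on mouse chromosome 3.

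In these Mϕs, IL-4 raised S100a4, S100a6 and S100a10 and lowered S100a8 and S100a9, while S100a1 was the 1 member that passed the test against control with IL-6. These calls were not equally firm. Of 23 alternative fits with IL-4, 23 called S100a4, 22 S100a10, 21 S100a6, 18 S100a8 and 10 S100a9. For S100a1 with IL-6, 5 of 23 did. When the fit held a term for 2 sets of libraries described below, only S100a4 still passed with IL-4. IL-6- and IL-4-treated Mϕs differed in 5 members, with S100a8 and S100a9 higher and S100a4, S100a6 and S100a10 lower in the presence of IL-6. Of all genes tested, 13.6% were higher and 6.82% lower with IL-6 than with IL-4. Against control, 5.02% rose and 8.89% fell with IL-4, and 3.49% rose and 1.89% fell with IL-6. S100a11 and S100a13 passed in no contrast. The values are FPKM, fragments scaled to the exon length of the gene and to the total of the library, which are levels per length and can be set side by side between genes. A member was called where limma gave an adjusted p below 0.05 and the log2 fold change on log2(FPKM + 0.1) was at least 1 in size.

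All 8 genes were found on chromosome 3 of GRCm38 in the GENCODE M21 annotation, and all are protein-coding. S100a1 (ENSMUSG00000044080.9, chr3:90511034-90514392, minus strand) and S100a13 (ENSMUSG00000042312.9, chr3:90514435-90524581, plus strand) stand head to head. They are followed by S100a4 (ENSMUSG00000001020.8, chr3:90603771-90606045, plus), S100a6 (ENSMUSG00000001025.8, chr3:90612882-90624181, plus), S100a8 (ENSMUSG00000056054.9, chr3:90668978-90670035, plus) and S100a9 (ENSMUSG00000056071.12, chr3:90692632-90695721, minus). S100a11 (ENSMUSG00000027907.4, chr3:93520488-93526287, plus) and S100a10 (ENSMUSG00000041959.14, chr3:93555080-93564643, plus) lie apart from these, 28.8 kb from each other. Only 42 bases part S100a1 from S100a13, 6.84 kb part S100a4 from S100a6, and 22.6 kb part S100a8 from S100a9.

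The sequences upstream of the genes that passed with IL-4 and that neighbour each other, and the gap between the head-to-head pair, are shown because the levels of these neighbours are compared below. They were taken from RefSeq (GRCm38.p6), run 5′ to 3′ on the strand of the gene, and are in lower case with the motif matches in capitals. S100a4 (chr3:90603520-90603769) and S100a8 hold the letters TATAAA, which start 31 and 30 bases before the RefSeq start of the gene, and the S100a9 sequence (chr3:90695722-90695971, minus strand) holds a match to the C/EBP letters TTNNGCAA, read on the other strand, that starts 236 bases before the start. The S100a6 sequence (chr3:90612644-90612893) holds no match. For S100a8, whose first exon starts earlier in GENCODE than in RefSeq, the stretch before the GENCODE exon (chr3:90668821-90668977) and the 30 bases around TATAAA (chr3:90669029-90669058) are given, and the gap between S100a1 and S100a13 (chr3:90514393-90514434) is on the plus strand.
S100a4: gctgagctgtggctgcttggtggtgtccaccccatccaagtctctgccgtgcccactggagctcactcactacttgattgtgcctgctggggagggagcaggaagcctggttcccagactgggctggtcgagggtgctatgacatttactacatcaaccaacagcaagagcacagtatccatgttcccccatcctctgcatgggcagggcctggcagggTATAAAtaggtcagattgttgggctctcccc
S100a6: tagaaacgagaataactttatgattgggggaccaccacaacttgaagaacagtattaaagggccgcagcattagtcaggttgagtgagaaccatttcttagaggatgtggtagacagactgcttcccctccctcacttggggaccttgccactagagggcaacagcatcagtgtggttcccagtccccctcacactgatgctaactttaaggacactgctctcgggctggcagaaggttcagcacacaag
S100a8, before the GENCODE exon: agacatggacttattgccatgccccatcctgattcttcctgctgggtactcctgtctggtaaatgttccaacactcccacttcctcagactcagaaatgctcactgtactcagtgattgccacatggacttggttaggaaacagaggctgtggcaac
S100a8, around the match: caagctttcctcTATAAAagcagctgacac
S100a9: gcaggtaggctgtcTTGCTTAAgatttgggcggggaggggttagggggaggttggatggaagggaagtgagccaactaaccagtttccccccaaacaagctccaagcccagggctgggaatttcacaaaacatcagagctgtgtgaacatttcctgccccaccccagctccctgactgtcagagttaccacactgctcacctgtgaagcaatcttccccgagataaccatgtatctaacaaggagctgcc
S100a1 to S100a13 gap: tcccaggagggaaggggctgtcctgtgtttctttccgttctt

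Sequences from 250 bases before to 50 after the RefSeq start were given for 7 of the 8 members, all but S100a10, and were searched on both strands. The letters TTC and GAA with 3 bases between them, the usual form bound by STAT3, were in none of the 7 and in 8.29% of all 32817 promoters of this length. With 4 bases between them, the form preferred by STAT6, the letters were also in none of the 7 and in 6.94% of all promoters. TTNNGCAA was in 10.8% of all promoters, TATAAA in 13.6% and the AP-1 letters TGANTCA in 7.81%. S100a11 was the member with AP-1 letters, which start 136 and 38 bases before its start, and in S100a9 a TATAAA match begins at the start itself. The S100a1 and S100a13 sequences hold no match to these letters.

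The 9 libraries hold 29988160 to 39909571 fragments over genes, read from the steps of the FPKM values. The Mϕ markers Adgre1, Csf1r, Cd68, Itgam, Fcgr1, Mertk and Lyz2 have a summed FPKM of 16537 to 18825 in controls, 6006 to 7028 under IL-4 and 20053 to 21174 with IL-6. Lysozyme, Lyz2, makes up 79.2 to 92.8% of the fragments of the 5 among them whose fragments could be read (all but Adgre1 and Csf1r). The libraries are not alike in 3 respects that bear on the S100 genes. First, 17 intestinal marker genes, which Mϕs should lack, sum to between 33.4 and 49.9 fragments per 1000000 in IL-4 #1 and all 3 controls, and to between 0.0990 and 0.582 in the other 5 libraries. Control and IL-6 libraries therefore never share a set, and values within the sets are given below for IL-4. Second, 17 granulocyte markers, among them Ngp, Ltf and Camp, have a summed FPKM of 1495 to 2411 in controls, 562.3 to 684.2 under IL-4 and 2192 to 3027 with IL-6. None of the 17 is at 0 in every library, and fragments could be read for 15 of them, all but Retnlg and Stfa2l1. Last, the members have short exons (511 to 1367 bases in all, against a median of 3721 over the genes tested), and the 1074 tested genes in that range of length sit above their mean over libraries in IL-4 #3, with a median deviation of 0.43 on the log2 scale, against -0.23 to 0.18 in the other 8. IL-4 #3 gave the highest value of its group for 8 of 8 members, Control #1 the lowest of its group for 8 of 8, and IL-6 #1 the lowest for 7 of 8.

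**Figure D1:**
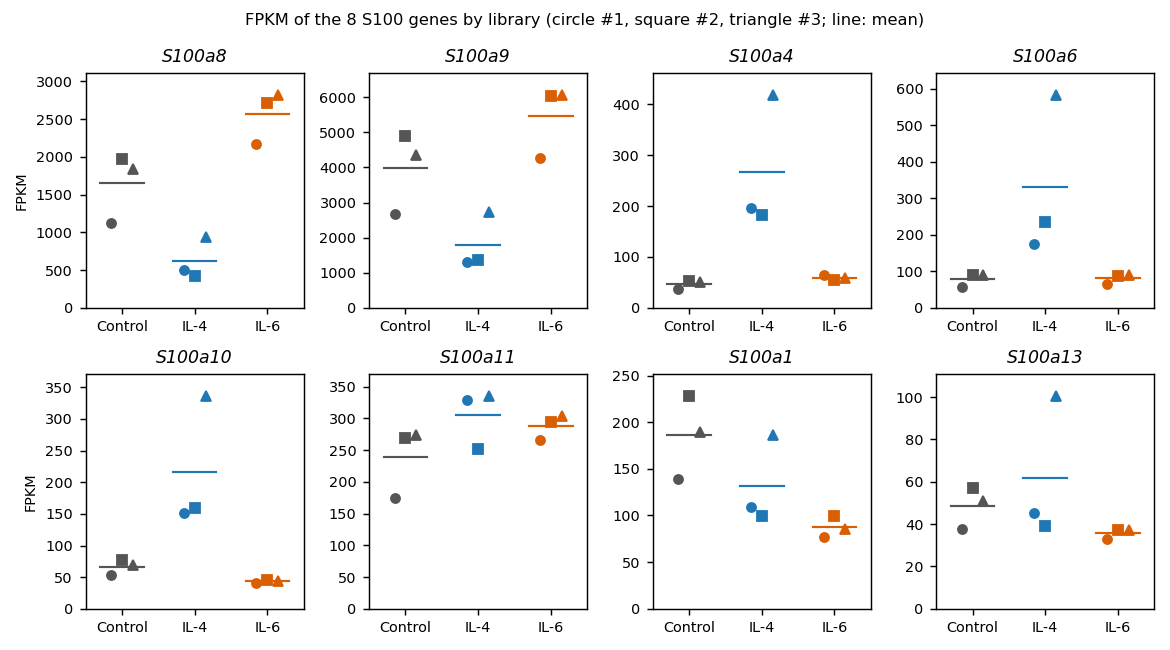
FPKM (linear axes from 0, 1 scale per gene) of the 8 S100 genes in each of the 9 libraries, by condition, with a line at the mean of 3. The IL-4 libraries lie above all controls for S100a4, S100a6 and S100a10 and below them for S100a8, and the highest IL-4 value is that of IL-4 #3 in all 8 panels.

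S100a9 and S100a8 were the first and second most abundant S100 genes in each of the 9 libraries. By mean FPKM over the whole table, S100a9 was at place 9 in controls, 19 under IL-4 and 6 with IL-6, and S100a8 at places 20, 67 and 14. Together the 8 members took 0.256 to 0.451% of all fragments in controls, 0.185 to 0.389% under IL-4 and 0.412 to 0.559% with IL-6. Of the summed FPKM of the 8 genes, S100a8 and S100a9 made up 88.4 to 89.9% in controls, 64.2 to 65.1% under IL-4 and 92.2 to 93.5% with IL-6. The share thus lay apart in all 3 conditions, with a narrow spread within each.

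S100a8 encodes the smaller calprotectin subunit. Its level was 1125, 1978 and 1843 FPKM in Control #1, #2 and #3. In IL-4 #1, #2 and #3 it was 505.4, 427.2 and 933.3 FPKM, and it was 2172, 2709 and 2826 FPKM in IL-6 #1, #2 and #3. All 3 IL-4 libraries were below all controls, and all 3 IL-6 libraries were above them. The mean fell from 1649 ± 458 to 622.0 ± 272 FPKM (SD, n = 3) under IL-4, with a log2 fold change of -1.45 (SE 0.33, adjusted p = 0.0136). With IL-6 the mean was 2569 ± 349 FPKM, which is 0.67 above control on the log2 scale (95% interval -0.08 to 1.42, adjusted p = 0.29) and did not pass. Between the cytokines, S100a8 was 4.13-fold higher with IL-6 (log2 fold change 2.12, SE 0.33, adjusted p = 0.00169).

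S100a9, the larger calprotectin subunit, had 2688, 4886 and 4345 FPKM in the controls. It had 1304, 1352 and 2724 FPKM under IL-4 and 4265, 6047 and 6079 FPKM with IL-6. IL-4 #3 lay just above Control #1, so these groups overlapped, and IL-6 #1 lay within the range of the controls. S100a9 fell with IL-4 by the limma test (3973 ± 1145 to 1793 ± 806 FPKM, log2 fold change -1.19, SE 0.34, adjusted p = 0.0367), whereas the two-sided exact permutation test gave p = 0.2, where 0.1 is the smallest that 3 against 3 can give. The call held in 2 of the 9 fits that left out 1 library, those without Control #1 and without IL-4 #3, and the other 7 gave -1.005 to -1.19 with adjusted p from 0.0510 to 0.118. Over all 23 alternative fits the call held in 10. With IL-6 the mean was 5464 ± 1038 FPKM, with a log2 difference from control of 0.49 (95% interval -0.30 to 1.27, adjusted p = 0.496). IL-6 libraries exceeded IL-4 libraries 3.05-fold (log2 fold change 1.68, SE 0.34, adjusted p = 0.00686), with no overlap.

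The S100a8 call with IL-4 was lost without Control #2 (-1.30, adjusted p = 0.0532) or Control #3 (-1.35, adjusted p = 0.0557). In IL-4 #1, which has the intestinal transcripts as the controls do, S100a8 was at 0.307 and S100a9 at 0.328 of the control mean. In the other set, the IL-6 mean was 3.78 times the mean of IL-4 #2 and #3 for S100a8 and 2.68 times for S100a9. Both differences were thus in the same direction within the sets.

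The granulocyte markers moved with the calprotectin genes, and most Mϕ markers did too. Of the 7 Mϕ markers, 4 fell with IL-4 and 0 rose by limma, with a median log2 fold change of -1.30. At an unadjusted p below 0.05, 1 was higher. For IL-6 against IL-4, 4 Mϕ markers were higher and 0 lower by limma, with a median of 1.21. With IL-6 against control, 0 passed by limma, with 2 higher and 1 lower at an unadjusted p below 0.05. With IL-4, 14 of the 17 granulocyte markers fell, beside 8.89% of all genes, and none rose, beside 5.02%. None rose at an unadjusted p below 0.05 by limma either, and 0 of the 15 that voom tested did. The median log2 fold change of the 17 was -1.62, against -0.20 for all genes. Examples are Camp, the precursor of a granule peptide, at -2.61 (adjusted p = 0.000296), and Ngp, another granule protein, at -1.63 (adjusted p = 0.00279). With IL-6, 3 of the 17 rose against control, beside 3.49% of all genes, and 16 were higher than with IL-4, beside 13.6%. Fragments of S100a8 and S100a9 per fragment of the 15 granulocyte markers were 0.841, 1.03 and 0.992 in the controls, 0.838, 0.989 and 2.29 under IL-4, and 0.918, 0.996 and 0.944 under IL-6. Apart from IL-4 #3, the ratio was therefore within 0.838 to 1.03 in the other 8 libraries, and the groups overlapped in each contrast (exact permutation p = 0.9, 1 and 0.8 for IL-4 and IL-6 against control and IL-6 against IL-4). Taken over the FPKM of all 17 markers, the ratio was 2.55, 2.85 and 2.80 in the controls, 2.65, 3.16 and 5.85 under IL-4, and 2.94, 3.09 and 2.94 under IL-6. On this scale the IL-6 libraries were all above the controls (exact permutation p = 0.1, the smallest possible), and the IL-4 libraries overlapped both other groups (exact permutation p = 0.3 and 0.7). Monocyte markers, 7 in all, took 289.9 to 332.1 fragments per 1000000 in controls, 1057 to 3045 with IL-4 and 1297 to 1361 with IL-6. Against control, 1 of them rose and 3 fell with IL-4 while 6 rose with IL-6, beside the shares of all genes just given. Between the cytokines, 6 were higher and 1 lower with IL-6 than with IL-4. The part of such cells in the S100a8 and S100a9 values was not tested, and in bulk RNA fewer cells of a type and less RNA per cell cannot be told apart.

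The balance of the calprotectin transcripts also differed. The ratio of S100a9 to S100a8 FPKM was 2.39, 2.47 and 2.36 in the controls, 2.58, 3.16 and 2.92 under IL-4 and 1.96, 2.23 and 2.15 under IL-6. The means were 2.41 ± 0.0582, 2.89 ± 0.293 and 2.12 ± 0.138 (SD, n = 3), and no 2 conditions overlapped. Each of the 3 contrasts gave an exact permutation p of 0.1, the smallest that 3 against 3 unpaired libraries can give. The exon lengths of S100a8 and S100a9 are 694 and 522 bases. The part of library differences by gene length in this ratio was not tested, and control and IL-6 libraries never share a set.

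**Figure D2:**
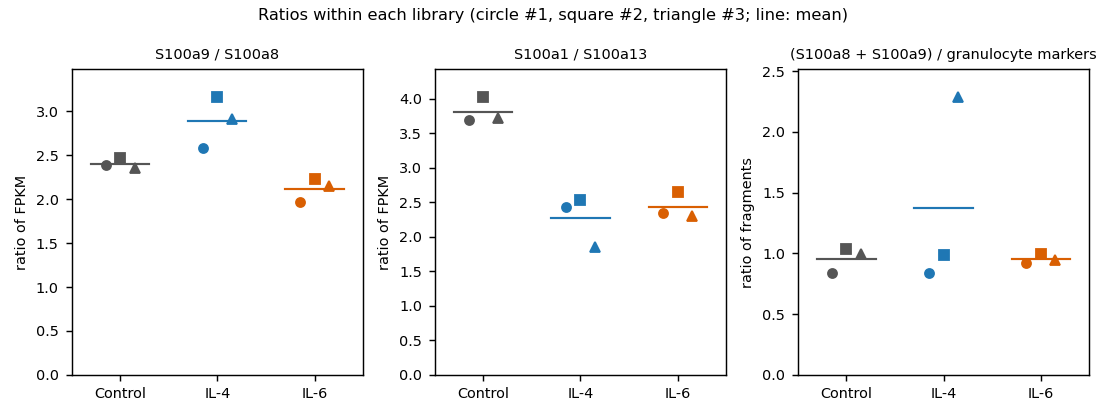
Ratio of S100a9 to S100a8 FPKM, of S100a1 to S100a13 FPKM, and of S100a8 plus S100a9 fragments to the fragments of 15 granulocyte markers, in each library by condition, with a line at the mean of 3. The 3 conditions do not overlap in the first panel, the controls stand above both cytokines in the second, and IL-4 #3 stands apart at 2.29 in the third.

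S100a4 encodes a protein that binds the heavy chain of nonmuscle myosin IIA and is a common marker of motile cells. It stood at 36.7, 52.1 and 51.7 FPKM in the controls. With IL-4 it reached 196.5, 183.1 and 419.1 FPKM, and with IL-6 it was 65.3, 54.1 and 58.3 FPKM. The lowest IL-4 library was thus above the highest of the other 6. The rise with IL-4 was 5.68-fold, from 46.9 ± 8.76 to 266.2 ± 133 FPKM (log2 fold change 2.41, SE 0.31, adjusted p = 0.000895), the largest among the members in this contrast. It passed in all 23 alternative fits. The IL-6 libraries (59.2 ± 5.69 FPKM) were each above the controls by a small margin, 0.35 on the log2 scale (95% interval -0.36 to 1.06, adjusted p = 0.591), and did not pass. IL-6 against IL-4 gave -2.06 (SE 0.31, adjusted p = 0.00149).

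Reads of S100a4 could in part be those of an overlapping gene model. Gm42674, annotated on the same strand, shares 302 bases of exon with S100a4 and 47.4% of its stretches of 50 bases, and was listed at 0 in all 9 libraries. Among the members, S100a11 is the other with shared stretches.

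S100a6, or calcyclin, binds the calcyclin-binding protein and lies next to S100a4. It was at 58.0, 89.7 and 89.4 FPKM in the controls, at 175.7, 234.9 and 583.9 FPKM under IL-4 and at 65.7, 88.0 and 90.6 FPKM with IL-6. IL-4 libraries were again above the other 6 without overlap, with IL-4 #3 2.49 times as high as IL-4 #2. The mean rose 4.20-fold with IL-4, from 79.0 ± 18.2 to 331.5 ± 221 FPKM (log2 fold change 1.90, SE 0.42, adjusted p = 0.0123). With IL-6 it was 81.4 ± 13.6 FPKM (0.06, 95% interval -0.90 to 1.01, adjusted p = 0.951), and the IL-6 libraries lay -1.84 from the IL-4 libraries (SE 0.42, adjusted p = 0.0107). The ratio of S100a4 to S100a6 was 0.578 to 0.633 in controls and 0.718 to 1.118 with IL-4, without overlap (exact permutation p = 0.1, the smallest possible). With IL-6 the ratio was 0.6145 to 0.9938, which overlapped both the controls (exact permutation p = 0.2) and the IL-4 libraries (exact permutation p = 0.5).

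S100a10 is the partner of annexin A2 and is known as p11, a subunit of a plasminogen-binding complex. It had 53.4, 76.8 and 69.1 FPKM in the controls. With IL-4 it had 152.1, 158.6 and 337.1 FPKM, and with IL-6 40.5, 45.1 and 44.5 FPKM. The 3 conditions did not overlap, with IL-4 highest and IL-6 lowest. IL-4 raised the mean 3.25-fold, from 66.4 ± 11.9 to 216.0 ± 105 FPKM (log2 fold change 1.61, SE 0.30, adjusted p = 0.00565). The difference of IL-6 (43.3 ± 2.47 FPKM) from control was -0.60 (95% interval -1.28 to 0.08, adjusted p = 0.302) and did not pass. IL-6 against IL-4 gave -2.21 (SE 0.30, adjusted p = 0.000858), the largest difference of a member in that contrast.

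Size without the high library and within the sets was as follows for these 3 genes. Leaving out IL-4 #3, the log2 fold changes with IL-4 were 2.03 for S100a4, 1.39 for S100a6 and 1.24 for S100a10, and all 3 passed. IL-4 #1 alone was 4.19, 2.22 and 2.29 times the control mean for S100a4, S100a6 and S100a10. In the set low in intestinal transcripts, the mean of IL-4 #2 and #3 was 5.08, 5.03 and 5.72 times the IL-6 mean for the same genes. That mean holds the high library IL-4 #3, and IL-4 #2 alone was 3.09, 2.885 and 3.66 times the IL-6 mean. When the fit held a term for the set of libraries, S100a4 passed against control (2.08, adjusted p = 0.0231). S100a6 (1.18, adjusted p = 0.201) and S100a10 (1.21, adjusted p = 0.101) did not, nor did S100a8 (-1.66, adjusted p = 0.0712) and S100a9 (-1.56, adjusted p = 0.0862). The part of the intestinal transcripts in these values was not tested. Of 8 eosinophil, mast cell and basophil markers, 3 rose with IL-4 (Mcpt8, Fcer1a and Cpa3), beside 5.02% of all genes. Prg2 and Kit, 2 of the 8, fell, beside 8.89%. For IL-6 against IL-4, 1 of the 8 was higher and 4 were lower, beside 13.6% and 6.82%. The part of such cells in the S100a4, S100a6 and S100a10 values was not tested.

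S100a11, which binds annexin A1, came next in level after calprotectin in 8 of the 9 libraries. Its FPKM was 174.5, 269.4 and 274.1 in the controls, 329.3, 252.5 and 336.2 under IL-4 and 266.1, 293.8 and 303.9 with IL-6. The groups overlapped in each contrast, and the means were 239.3 ± 56.2, 306.0 ± 46.5 and 287.9 ± 19.6 FPKM. The log2 differences were 0.37 with IL-4 (95% interval -0.09 to 0.84, adjusted p = 0.225), 0.29 with IL-6 (-0.17 to 0.76, adjusted p = 0.482) and -0.08 between them (-0.54 to 0.39, adjusted p = 0.768). Of its stretches of 50 bases, 41.1% recur in the pseudogenes Gm12854, Gm7665 or Gm29240. These had up to 4.64, 2.47 and 0.455 FPKM, so that the S100a11 level is uncertain by what the counting gave to its copies. Set against its chromosomal neighbour S100a10, it was 3.27 to 3.97 times as high in controls, 0.997 to 2.17 times under IL-4 and 6.52 to 6.84 times with IL-6, with no overlap (exact permutation p = 0.1 in each contrast, the smallest possible).

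S100a1 is best known from heart and skeletal muscle, where it acts on calcium release. It had 139.5, 228.6 and 189.7 FPKM in the controls, 109.6, 99.4 and 186.4 FPKM under IL-4 and 76.7, 99.3 and 85.7 FPKM with IL-6. The IL-6 libraries were all below the controls, IL-6 #2 was level with IL-4 #2, and the IL-4 libraries overlapped the controls through IL-4 #3. The mean fell 2.13-fold with IL-6, from 186.0 ± 44.7 to 87.2 ± 11.4 FPKM (log2 fold change -1.07, SE 0.27, adjusted p = 0.0490). This call sits at the threshold and held in 5 of 23 alternative fits. Of the fits without 1 library, only that without IL-4 #3 kept it (adjusted p = 0.00489), and the other 8 gave -0.91 to -1.26 with adjusted p from 0.0505 to 0.181. It was also lost with the replicate block (adjusted p = 0.0557). With IL-4 (131.8 ± 47.6 FPKM) the log2 difference was -0.52 (95% interval -1.15 to 0.10, adjusted p = 0.202).

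The summed FPKM of 18 skeletal muscle markers was 11.2 to 14.7 in controls, 4.68 to 15.2 under IL-4 and 14.6 to 20.6 with IL-6, and the ranges overlapped. The sum covers markers that moved in opposite directions. For IL-6 against control the 7 tested had a median log2 fold change of 1.60, 5 above 0 and 2 below. Myl1 was at 0 in the controls, 0 to 0.991 FPKM under IL-4 and 0.675 to 1.27 with IL-6. Myh1 was likewise at 0 in the controls, at 0 to 0.452 under IL-4 and at 0.302 to 0.511 with IL-6. Tnni2 went the other way, from 4.34 to 6.97 in controls to 1.94 to 2.28 with IL-6. Myh4, a fast myosin heavy chain, was at 0 in all 9 libraries. Within the IL-4 group, the muscle fragments per 1000000 differed between the sets of libraries. They were 8.16 in IL-4 #1, which shares the set of the controls, and 23.3 and 25.9 in IL-4 #2 and #3. Over all libraries they were 8.16 to 24.3 in the set with intestinal transcripts and 23.3 to 34.4 in the set low in them. Control and IL-6 libraries never share a set, so set and IL-6 cannot be told apart for these markers. The part of muscle transcripts in the S100a1 values was not tested.

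S100a13, which takes part in the release of FGF1 and IL-1α, showed 37.8, 56.9 and 51.1 FPKM in the controls, 45.0, 39.2 and 100.7 FPKM under IL-4 and 32.8, 37.4 and 37.2 FPKM with IL-6. The IL-6 libraries were below all others, by little, while IL-4 overlapped the controls. The means were 48.6 ± 9.76, 61.7 ± 34.0 and 35.8 ± 2.60 FPKM, and the log2 differences from control were 0.23 with IL-4 (95% interval -0.54 to 1.00, adjusted p = 0.645) and -0.42 with IL-6 (-1.19 to 0.35, adjusted p = 0.547). IL-6 against IL-4 gave -0.65 (-1.42 to 0.12, adjusted p = 0.157).

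The head-to-head pair S100a1 and S100a13, 42 bases apart, did not keep a fixed ratio. S100a1 was 3.69, 4.02 and 3.71 times as high as S100a13 in the controls, 2.44, 2.53 and 1.85 times under IL-4 and 2.34, 2.65 and 2.31 times with IL-6. All 6 cytokine-treated libraries were below all 3 controls, with means of 3.81 ± 0.185, 2.27 ± 0.369 and 2.43 ± 0.192, and each cytokine gave an exact permutation p of 0.1 against control, the smallest possible. The cytokines overlapped each other (exact permutation p = 0.7). Being taken within a library, the ratio is free of library scale, and the exon lengths of the genes are near each other (694 and 715 bases).

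**Figure D3:**
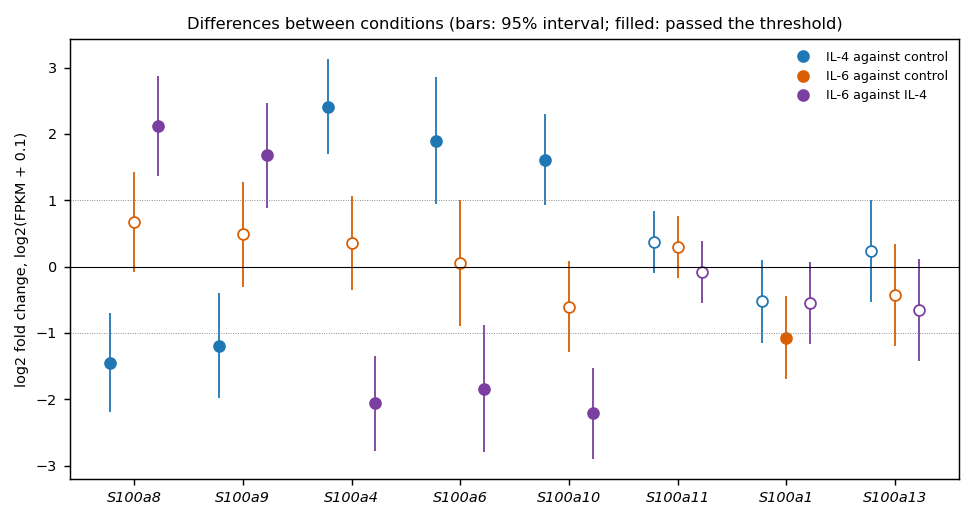
Log2 fold change on log2(FPKM + 0.1) of the 8 members in the 3 contrasts, with 95% intervals from limma and filled points for members that passed. The S100a8 and S100a9 points lie on the opposite side of 0 from S100a4, S100a6 and S100a10 with IL-4, the IL-6 against control points lie between -1.07 and 0.67, and those of S100a11 lie between -0.08 and 0.37.

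Read against all 12824 genes tested, the counts were as follows. With IL-4, 3 of 8 members rose, while 5.02% of all genes did, and 2 of 8 fell, while 8.89% of all genes did. With IL-6 none rose by limma, against 3.49% of all genes, and 1 fell, against 1.89%. At an unadjusted p below 0.05, 0 members were higher with IL-6 as well, and voom on the recovered fragments called 0 in either direction. Between IL-6 and IL-4, 2 members were higher, with 13.6% of all genes, and 3 were lower, with 6.82%. The members had median log2 fold changes of 0.30, 0.18 and -0.60 in these contrasts, where the median of all genes was -0.20, -0.0044 and 0.22. All 8 passed the filter on low values, a mean of at least 0.5 FPKM over the 9 libraries.

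The median of all genes with IL-4 depends on scale. Rescaling the libraries to median ratios moved it from -0.20 to -0.008, and the genes called with IL-4 from 644 higher and 1140 lower to 834 and 874. On that scale the log2 fold changes with IL-4 were 2.61 for S100a4, 2.10 for S100a6 and 1.81 for S100a10. S100a8 (-1.25, adjusted p = 0.0589) and S100a9 (-0.99, adjusted p = 0.133) kept their direction and did not pass. Against IL-4, IL-6 still gave 1.92 for S100a8 and 1.47 for S100a9, both past the threshold, as were S100a4, S100a6 and S100a10 with -2.26, -2.04 and -2.42.

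Along the chromosome, some neighbours moved alike and others did not. S100a4 and S100a6 rose with IL-4, S100a8 and S100a9, which lie further along the same cluster, fell with it, and S100a10, 28.8 kb from S100a11, rose while that gene did not pass. Across the 9 libraries the Pearson correlation on log2(FPKM + 0.1) was 0.99 for S100a8 with S100a9, 0.96 for S100a4 with S100a6, 0.95 for S100a6 with S100a10 and 0.92 for S100a4 with S100a10, of which the last 2 pairs lie far apart. It was 0.75 for the adjacent S100a1 and S100a13, and also 0.77 and 0.75 for S100a13 with the more distant S100a10 and S100a6. Other genes often ran closer. Among all genes tested, S100a9 was at place 5 by correlation with S100a8, and S100a6 at place 62 with S100a4. S100a10 was at place 187 with S100a6 and 230 with S100a4, and S100a13 at place 848 with S100a1. These are descriptions over libraries that share treatment and gene length.

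**Figure D4:**
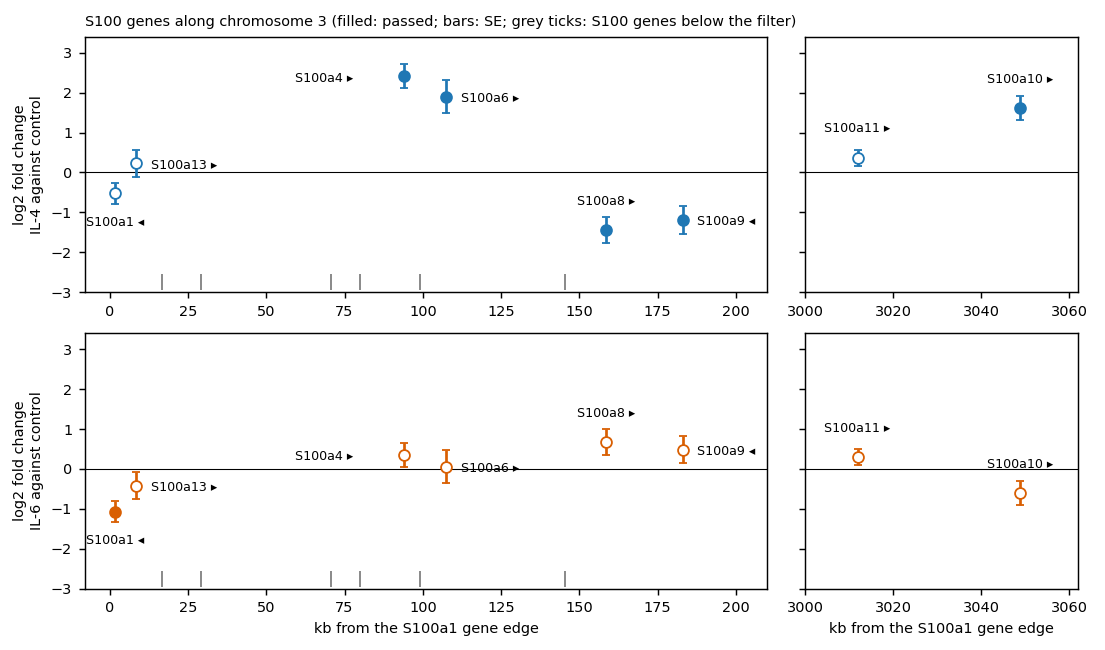
Log2 fold change with IL-4 (upper) and IL-6 (lower) against control by distance in kb from the S100a1 gene edge, in 2 windows of chromosome 3, with SE bars, filled points for members that passed, arrows for the strand and grey ticks for S100 genes below the filter. With IL-4 the 2 points at S100a4 and S100a6 are above 0 and the 2 at S100a8 and S100a9 below it, and with IL-6 only S100a1 is filled.

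The S100 genes outside these 8 were barely present. S100a2, S100a3, S100a5, S100a7a, S100a14, S100a16, S100b, S100g and S100z are in the table, and none of the 9 reached the filter. S100a5 and S100z had 0 fragments in all libraries, and the 9 genes together had 8 to 18 fragments in a library. The highest was S100a7a with 1 to 7 fragments, followed by S100a16 with 0 to 7. S100b, which marks glia, had 0 to 5 fragments, S100a14, an epithelial gene, 0 to 4, and S100a3 and S100a2 also 0 to 4. S100g, the calcium-binding protein of intestinal absorption, had 0 to 2 fragments. The lowest count of any member was 749 fragments, for S100a4 in a control.

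Of the 7 receptor genes through which released S100 proteins are known to act, 1 rose and 1 fell with each cytokine, beside 5.02% and 8.89% of all genes under IL-4, and 3.49% and 1.89% under IL-6. Cd14, the co-receptor of TLR4, was at 124.6, 140.9 and 108.8 FPKM in controls, 14.98, 19.3 and 34.0 under IL-4 and 287.7, 295.9 and 316.3 with IL-6. It fell with IL-4 (log2 fold change -2.53, adjusted p = 0.000366) and rose with IL-6 (1.27, adjusted p = 0.0262), with no overlap between conditions. Cd36, a scavenger receptor that binds calprotectin with fatty acids, was at 266.5, 277.5 and 389.1 FPKM in controls, 1027, 1107 and 628.3 under IL-4 and 24.2, 28.0 and 29.3 under IL-6. Cd36 moved in the reverse direction to Cd14, with 1.54 with IL-4 (adjusted p = 0.00256) and -3.50 with IL-6 (adjusted p = 0.000171).

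Myd88, the adaptor below TLR4, was 1.19 higher with IL-6 than with IL-4 on the log2 scale (adjusted p = 7.02e-05). Against control its log2 differences of -0.38 under IL-4 and 0.81 with IL-6 were under the size threshold. Bsg, basigin, a receptor of S100a9, was at 116.7, 126.8 and 121.1 FPKM in the 3 conditions and passed in none. The median log2 fold change of the 7 was -0.22, 0.06 and 0.25 in the 3 contrasts, close to the median of all genes.

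Of 11 intracellular partners, 10 were tested, and Fgf1 was below the filter. Anxa2, the partner of S100a10, was at 89.3, 132.3 and 135.5 FPKM in controls, 257.2, 312.7 and 458.0 under IL-4 and 82.5, 91.7 and 93.3 with IL-6. Like S100a10, it rose with IL-4 (log2 fold change 1.51, adjusted p = 0.00275) and was lower with IL-6 than with IL-4 (-1.90). Anxa2 was 1.67 to 1.96 times as high as S100a10 in controls and 1.36 to 1.97 times with IL-4 (exact permutation p = 0.7). With IL-6 the ratio was 2.04 to 2.10, above the other 6 libraries (exact permutation p = 0.1, the smallest possible).

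Anxa1, whose protein binds S100a11, was at 141.6, 188.1 and 212.3 FPKM in controls, 534.2, 569.6 and 595.4 under IL-4 and 123.1, 129.0 and 134.6 with IL-6. It rose with IL-4 (1.67, adjusted p = 0.000187) and was lower with IL-6 than with IL-4 (-2.13), while S100a11 passed in neither contrast. Anxa1 and Anxa2 were the 2 partner genes of highest mean level and the 2 of the 10 that were called, with none called by limma for IL-6 against control, where 2 were lower at an unadjusted p below 0.05. Voom could test 7 of the 10, Anxa1 not among them, and called none in that contrast, with 1 lower at an unadjusted p below 0.05. Myh9, the myosin bound by S100a4, had 58.4, 43.5 and 87.1 FPKM in control, IL-4 and IL-6 and passed in no contrast.

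The genes whose levels ran most like those of each member were listed over the 12824 tested, by Pearson correlation on log2(FPKM + 0.1) over 9 libraries. For S100a9 they were S100a8, Pglyrp1, a granule peptidoglycan-binding protein, and Necap2, at 0.99. For S100a8 they were Mapk13, Hcls1 and Rab20, also at 0.99. S100a4 ran with Ciao2a, Psmb10 and Dbi (0.98 to 0.99), and S100a6 with Cox6a2, Chchd10 and the peroxidase Gpx1 (0.99). S100a10 ran with Ptges2, Slc25a3 and Il11ra1 (1.00 each when rounded), S100a13 with Fkbp2, Nr2c2ap and Hras (0.99), and S100a1 with Grn, Arhgdia and Saraf (0.98 to 0.99). S100a11 had weaker companions in Tuba1a, Msantd1 and H2afx (0.91 to 0.93). The points share treatment, mouse and library, and each list holds the highest values among all genes tested.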

How the data were processed

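RNA-seq of 9 libraries, 3 for each condition, was analysed. The authors deposited FPKM, and nothing else was used. The submitters' processing notes name STAR 2.4.2a, Cufflinks 2.2.1 and GRCm38, and the library kit was stranded. Identifiers were matched to GENCODE M21 (53274 of 53379 without version). All 79763 values under 20 fragments were whole fragments over the union of exons within 0.05 (100.0%), which gave the library totals and the fragment counts. Fragments were read only for genes whose identifier matched the annotation with its version, and voom tested no others. Precision is limited by 3 libraries in a group rather than by counting. The 8 members, the gene lists and the contrasts were chosen with earlier results of these data known.

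Genes whose mean over the libraries was 0.5 FPKM or more (12824) were fitted on log2(FPKM + 0.1) with limma 3.58.1 (trend and robust moderation, R 4.3.3), 3 groups in one fit and Benjamini-Hochberg adjustment over all genes. Fold changes on this scale understate changes of low genes. On simulated data the fit recovered 143 of 200 genes changed by 2 on the log2 scale for IL-6 against control, with 8 false calls. The simulated noise was independent for each gene and library. It held no shift of a whole library and no sets of libraries, so the false calls do not give the error rate of the real contrasts. Exact permutation tests were two-sided and took libraries as unpaired, since permuting within 3 pairs cannot go below p = 0.25. Named genes are the 8 members, the other S100 genes in the table, the receptor and partner genes called in any contrast with the 2 of highest mean, the 3 genes most correlated with each member, and markers of other cells whose levels moved with a member. Bsg, Myh9, Capg and Aif1 were added after their values were seen. Ratios between genes, the use of length and GC trends (a spline with 5 degrees of freedom) and the count of markers at 0 were also chosen after seeing the data. Column names and the design text tie each replicate number to a mouse, and the correlation of the deviations of same-numbered libraries from their group means ran from -0.415 to 0.521. Ratios and figures were made with Python 3.11.15, pandas 2.3.3 and matplotlib 3.10.9. The alternatives were other pseudocounts, filters and scalings, pairs of groups, the replicate block, the set of libraries as a term, voom on the recovered fragments, and leaving out each library.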

Additional observations from a re-analysis of the deposited data

How the results depend on the processing

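Each member's log2 fold change was recomputed in 23 other fits per contrast, 552 values in all, of which 501 kept their direction and side of the threshold, 39 lost a call and 12 changed sign. The 5 members called for IL-6 against IL-4 passed in each of the 23. With IL-4, 5 members were called, and 3 with median-ratio rescaling or with only the 2 groups compared, 1 with a term for the set of libraries (3 with length and GC trends also removed), 4 without a filter or with length and GC trends removed (S100a9 lost in both), and 3 to 5 when 1 library was left out. Of the 23 fits, 23 called S100a4, 22 S100a10, 21 S100a6, 18 S100a8 and 10 S100a9. With IL-6 against control, 1 was called, and 0 with a pseudocount of 0.01, without a filter, with median-ratio rescaling, voom, the set as a term or any removal of length and GC trends, and 0 to 1 without 1 library. The replicate block also gave 0 there (S100a1, adjusted p = 0.0557) and changed no other member's call. Over all genes, a filter of 5 FPKM gave 847, 306 and 1219 calls for IL-4 and IL-6 against control and IL-6 against IL-4 (1784, 690 and 2613 as reported), and an adjusted p below 0.05 alone gave 3186, 1077 and 4375. The set as a term gave 1111 with IL-4 and 187 with IL-6, or 457 with length and GC trends removed. Without 1 library the ranges were 1450 to 2150, 387 to 1001 and 2124 to 3274. Values that changed sign were all from differences that did not pass. With the set as a term, and then with length and GC trends also removed, IL-6 against control gave -0.14 and -0.18 for S100a4, -1.02 and -0.83 for S100a6, and -0.071 and -0.27 for S100a9. S100a13 with IL-4 went to -0.090 with the set as a term and to -0.19 without IL-4 #3 (-0.19 to 0.49 over the libraries left out), S100a6 with IL-6 ranged from -0.15 to 0.20 without 1 library, and S100a11 for IL-6 against IL-4 was 0.27 after quantile normalization. The cause was not tested. The settings with length and GC trends were added after seeing the data.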

Other observations

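Of 10 genes of calcium-binding proteins outside the S100 family, 1 rose and 1 fell with IL-4, beside 5.02% and 8.89% of all genes. Capg, a gelsolin-like protein that caps actin filaments, was at 203.0, 307.1 and 293.2 FPKM in the controls, 542.8, 668.5 and 1416 under IL-4 and 126.1, 136.6 and 127.6 with IL-6. It rose with IL-4 (log2 fold change 1.60, adjusted p = 0.0102 by limma), and IL-6 against control gave -1.02 (adjusted p = 0.119), which did not pass. Within the IL-4 group its highest value was in IL-4 #3, as for the 8 S100 genes. Aif1, an EF-hand protein of myeloid cells also known as Iba1, was at 81.9, 118.0 and 92.6 FPKM in the controls, 18.8, 12.7 and 22.7 under IL-4 and 101.8, 116.4 and 118.5 with IL-6. It fell with IL-4 (-2.45, adjusted p = 0.00018) and was 2.66 higher with IL-6 than with IL-4. The median log2 fold change of the 10 was 0.01 with IL-4, -0.11 with IL-6 and -0.13 for IL-6 against IL-4.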
